A study of Mus musculus with 12 samples.

Results

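The 35 genes described here encode laminin chains, glycoproteins that link or decorate basement membranes and microfibrils, and integrin subunits. They were taken by name from 54232 gene IDs counted in each library, with collagens left out, and comprise 10 laminin chains, 4 basement membrane linkers, 6 microfibril and matrix glycoproteins, 10 integrin alpha subunits and 5 integrin beta subunits. RNA came from day 7 eye organoids, aggregates that form optic vesicles in culture, grown from 1 mouse embryonic stem cell line (Rax-GFP knockin hets), so that every group carries GFP at 1 Rax allele. LDHi+lactate organoids received 20 µM GNE-140, which blocks the enzyme lactate dehydrogenase, together with 25 mM sodium L-lactate. LDHi organoids received GNE-140 without lactate, and control organoids received neither. GNE-140 was given for 3 days in both LDHi+lactate and LDHi. Each group held 4 libraries, numbered 1 to 4, described in the methods as independent experiments. The labels state a 12 h pretreatment with lactate before GNE-140, whereas the methods state that lactate was given in the presence of GNE-140. All aggregates also received Matrigel, a laminin-rich matrix of mouse origin, on day 1; added matrix protein is not counted as RNA.

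Basement membranes are sheets of matrix under epithelia, and the optic vesicle evaginates as an epithelium that rests on such a sheet. Each laminin is a trimer of an alpha, a beta and a gamma chain that polymerizes at the cell surface, nidogens and heparan sulfate proteoglycans tie the laminin network to collagen IV, and fibrillins form microfibrils in the matrix beyond it. Integrins are receptors of an alpha and a beta subunit that bind these ligands and couple them to the actin cytoskeleton. The comparisons address what loss of lactate dehydrogenase activity does to transcription in the organoids and what lactate does in its presence.

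Total counts ranged from 29255114 to 42489921 per LDHi+lactate library, from 22174002 to 46881759 per LDHi library and from 25209097 to 48271386 per control library. Levels are CPM, each gene's count scaled to a common library size, differences are log2 fold changes with their standard error (SE), and calls rest on an adjusted p under 0.05 in edgeR's quasi-likelihood test over 17721 genes. All 35 genes passed the filter on low counts, and 29 of them had at least 10 counts in every library. Across genes, the deviations of same-numbered libraries from their group means correlated (r 0.329 to 0.634). Values from a fit blocked on that number are therefore given where it changes a call. Replicates 1 and 2 bear the cell type eye organoid in the labels, and replicates 3 and 4 bear retina progenitors. The 5 optic vesicle and retina markers (Rax, Six3, Six6, Lhx2, Pax6) summed to 581 to 840.1 CPM in LDHi+lactate, 409 to 501 CPM in LDHi and 569 to 1157 CPM in control libraries. Control replicate 4 stood apart: 12 mesenchyme markers summed to 929 CPM in it, against 203 to 364 CPM in the other controls, 160.5 to 205 CPM in LDHi+lactate and 122 to 179 CPM in LDHi. No marker of these lists was at 0 in all 4 libraries of a group. In bulk samples, fewer cells of a type and less RNA per cell cannot be told apart.

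Integrin alpha genes differed between LDHi and control in both directions, and the 250 bases before the RefSeq start of 3 of them (GRCm38.p6) are shown to set Itga1, which was higher in LDHi, beside Itga8 and Itga5, which were lower (Itga5 with the replicate block only). CG dinucleotides are in capitals.
Itga1 (minus strand, chr13:115101965-115102214): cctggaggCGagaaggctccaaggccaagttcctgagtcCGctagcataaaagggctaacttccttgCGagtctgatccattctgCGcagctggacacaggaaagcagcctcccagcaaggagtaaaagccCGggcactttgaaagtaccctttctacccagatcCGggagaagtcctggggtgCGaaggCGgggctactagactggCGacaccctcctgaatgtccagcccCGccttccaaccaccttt
Itga8 (minus strand, chr2:12301945-12302194): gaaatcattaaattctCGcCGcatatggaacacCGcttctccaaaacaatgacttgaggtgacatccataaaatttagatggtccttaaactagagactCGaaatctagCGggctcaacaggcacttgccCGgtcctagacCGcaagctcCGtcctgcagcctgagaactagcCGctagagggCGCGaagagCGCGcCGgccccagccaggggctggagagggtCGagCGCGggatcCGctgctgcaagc
Itga5 (minus strand, chr15:103366792-103367041): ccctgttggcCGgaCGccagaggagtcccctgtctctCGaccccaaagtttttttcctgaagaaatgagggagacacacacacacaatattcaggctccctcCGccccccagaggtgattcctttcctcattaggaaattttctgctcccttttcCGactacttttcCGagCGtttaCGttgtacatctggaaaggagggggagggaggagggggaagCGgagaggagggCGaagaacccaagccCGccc
These windows held 10, 18 and 11 CG dinucleotides for Itga1, Itga8 and Itga5, against a median of 6 over 32851 mouse promoters. In the full RefSeq windows of 300 bases, 22 of the 35 genes had an entry, with 26 promoters. Some of these lay far from the GENCODE start of the gene, up to 105002 bases for Itga9. The windows of Tnc overlap one another, as do those of Lamb3. Both windows counted below for TATAAA are those of Tnc. The letters GGGCGG (GC box, both strands) occurred in 18 of the 26 and in 35.7% of all promoters, CCAAT in 4 of the 26 and in 37.4% of all, TATAAA in 2 of the 26 and in 13.6% of all, and CACGTG in 0 of the 26 and in 7.15% of all; these letter strings do not contain one another. Of the 3 genes shown, Itga5 held GGGCGG at 2 positions and the others held none of the 4 strings, which describes these letters in these windows only.

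Per kilobase of exon, laminin RNA was dominated by the alpha1, beta1 and gamma1 chains, the trimer of early embryonic basement membranes. Lama1 made up 87.7% ± 3.47 of the summed laminin alpha level in LDHi+lactate, 86.8% ± 2.95 in LDHi and 77.8% ± 10.6 in control libraries (SD, n = 4 each), and Lama5, the widespread alpha5 chain of epithelia, most of the rest (11.9% ± 3.30, 12.8% ± 2.97 and 19.99% ± 7.82 in the same groups). Lamb1 held 85.9% ± 5.21, 79.1% ± 5.55 and 76.3% ± 11.7 of the beta chain level in LDHi+lactate, LDHi and control libraries. Lamc1 held 96.99% to 99.97% of the gamma chain level in the 12 libraries. Among integrin beta subunits, Itgb1, the common partner of most matrix receptors, held 75.3% to 81.8% of the per-length level in the 12 libraries. Itga6, Itga5 and Itga3, subunits of the main laminin and fibronectin receptors, led the alpha subunits, and Itga6 held 35.03% ± 2.66 in LDHi+lactate, 41.7% ± 3.49 in LDHi and 32.8% ± 3.35 in control libraries. These shares are descriptions with no test, and the spread of the control values in the alpha and beta chains lay largely in control replicates 2 and 4. In these, Lama1 held 88.9% and 63.6% of the alpha level and Lamb1 89.1% and 60.7% of the beta level.

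**Figure D1:**
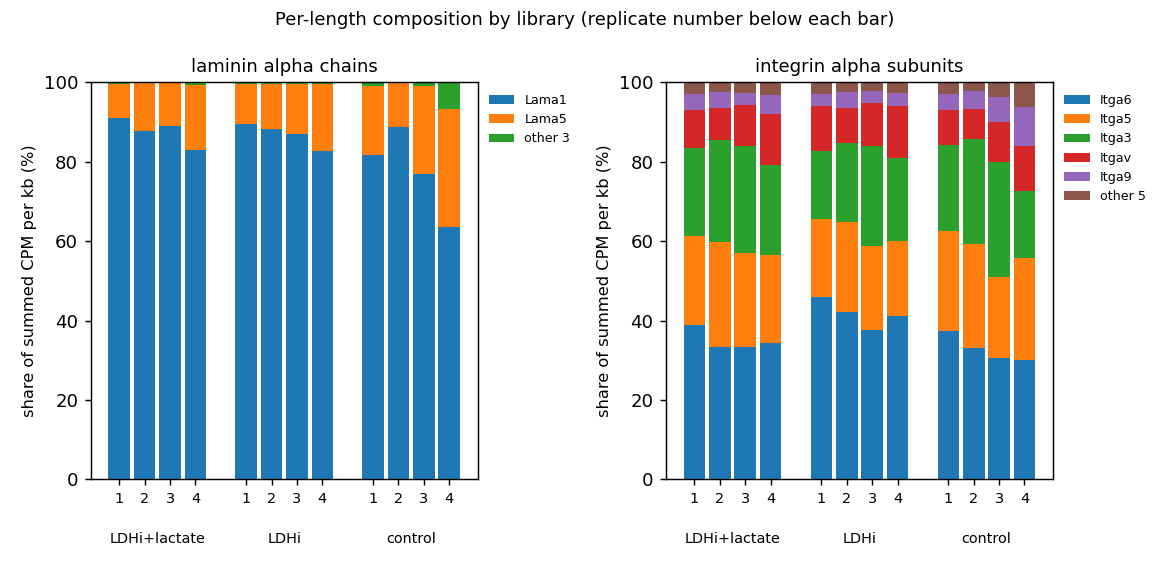
Share of the summed CPM per kilobase of exon (%) held by each laminin alpha chain (left) and integrin alpha subunit (right) in each of the 12 libraries, by group and replicate number. Lama1 fills 82.9% to 91.1% of the LDHi+lactate bars, 82.7% to 89.4% of the LDHi bars and 63.6% to 88.9% of the control bars.

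In LDHi against control, 1 of the 35 genes was higher (Itga1) and 4 were lower (Fbn2, Itga8, Itga9, Lama2) in edgeR without a block, against 3.09% of all genes tested called (0.909% higher and 2.18% lower). With the replicate block, 2 were higher (Itga1, Fn1) and 10 were lower (Fbn2, Lamc3, Lum, Itga9, Itga5, Itga8, Lama2, Itga4, Agrn, Itga3), against a background of 19.9% (9.85% higher and 10.1% lower). Libraries of the 2 groups did not overlap for 8 of the 35 genes (Lamc3, Fn1, Fbn2, Lum, Itga1, Itga5, Itga8, Itga9), against 9.67% of all genes. The median log2 difference of the 35 genes was -0.14, beside 0.01 over all genes tested. Without control replicate 4, 1 gene was higher (Itga1) and 2 were lower (Fbn2, Itga8), against 0.638% and 1.66% of all genes. With the block and without replicate 4, 2 were higher and 9 were lower (4.96% and 6.86%). DESeq2 called 1 higher and 8 lower (2.45% and 4.39% of all genes), and with the block 3 higher and 14 lower (10.2% and 10.6%). Each set alone gave fewer calls, 0 in replicates 1 and 2 (0.0% of all genes higher and 0.0162% lower) and 2 lower (Itga8, Itga9) in replicates 3 and 4 (0.272% and 0.365%).

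**Figure D2:**
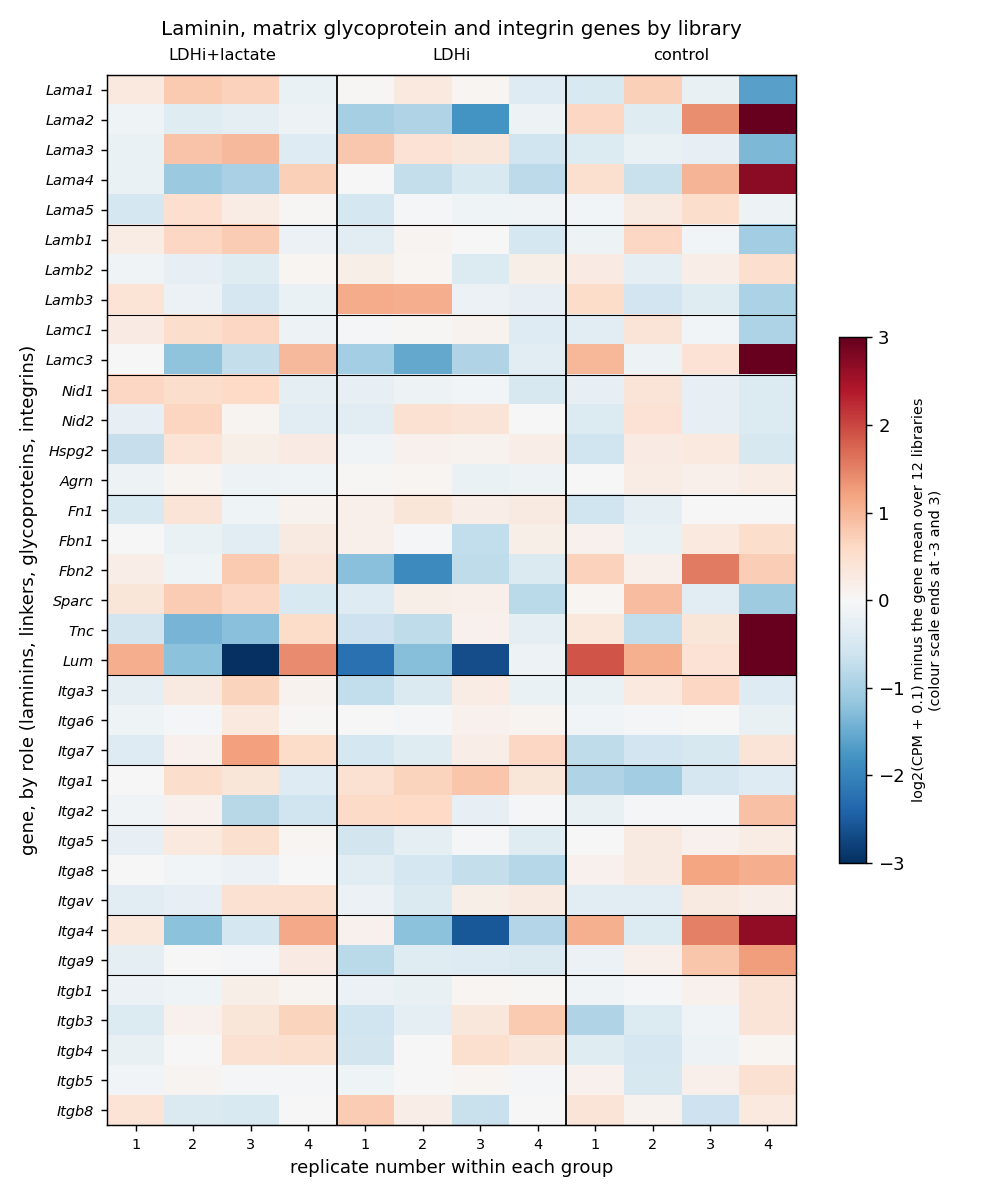
log2(CPM + 0.1) of each of the 35 genes (rows, by role) minus its mean over the 12 libraries, for LDHi+lactate, LDHi and control libraries (columns, by replicate number). The darkest red cells are Lama2, Lama4, Lamc3, Tnc, Lum and Itga4 in control replicate 4, and Fbn2 is blue in all 4 LDHi libraries.

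In LDHi+lactate against LDHi, none of the 35 genes was called without a block (0.0% of all genes were), while 3 of the 35 and 603 genes in all had an unadjusted p under 0.05. With the block, 1 was higher, Fbn2, against 0.638% of all genes called and 0.57% called higher. DESeq2 called Fbn2 without a block (0.303% of all genes were called higher) and 6 genes with it (Fbn2, Lamb1, Lamc1, Nid1, Itga3, Itga5; 2.29%). Libraries did not overlap for Fbn2, Itga8 and Itga9, against 2.1% of all genes. The median log2 difference was 0.15, beside -0.01 over all genes. In LDHi+lactate against control, none was called without a block (0.0% of all genes were; 11 of the 35 and 1653 genes in all had an unadjusted p under 0.05), whereas DESeq2 called Itga1 higher and Lama2 lower (0.638% and 0.66% of all genes), and with the block 7 higher and 10 lower (7.42% and 7.93%). Those 7 were Lama1, Lamb1, Lamc1, Nid1, Itga1, Itga7 and Itgb3. The 10 were Lama2, Lama4, Lamb2, Lamc3, Agrn, Fbn2, Lum, Tnc, Itga8 and Itga9. In edgeR with the block 5 were higher (Lama1, Lamc1, Nid1, Itga1, Itgb3) and 3 were lower (Lamc3, Lum, Agrn), against 8.05% of all genes called (4.18% higher and 3.87% lower). Libraries did not overlap for Itga1 and Itga8, against 4.23% of all genes. The first comparison and the second share the LDHi libraries, and the third shares libraries with both.

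**Figure D3:**
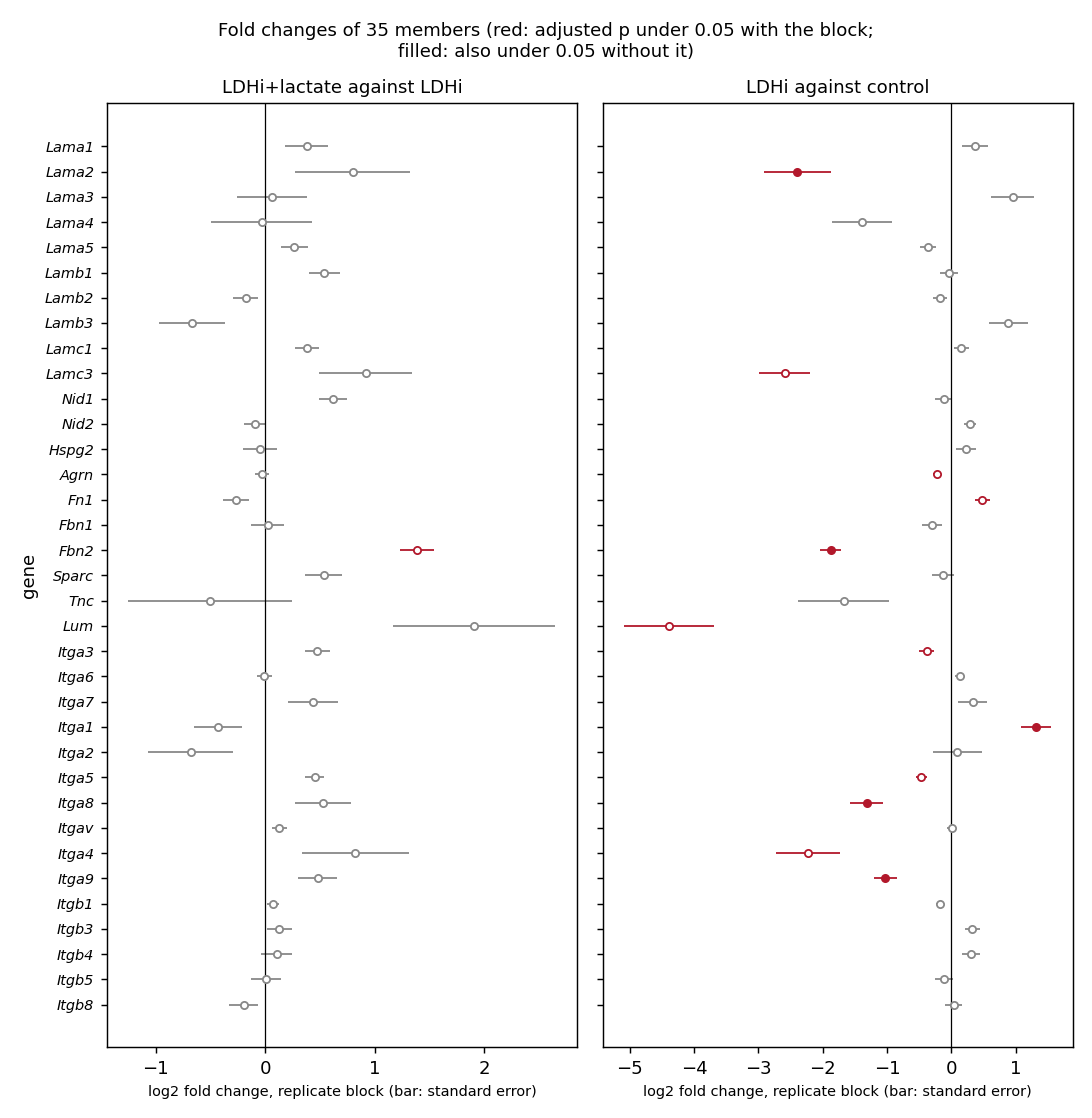
log2 fold changes with standard errors from the edgeR fit with the replicate block for LDHi+lactate against LDHi (left) and LDHi against control (right), 1 row per gene. Red marks an adjusted p under 0.05 with the block and filled points are also called without it: 5 genes on the right and none on the left, where Fbn2 at 1.39 is the only red point.

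Of the laminin genes, edgeR called Lama2 and, with the block, Lamc3 between LDHi and control over the 12 libraries, both of low level. Lama1, which encodes the alpha1 chain, had 738, 1043, 964 and 523 CPM in LDHi+lactate replicates 1 to 4, 619, 742, 629 and 456 CPM in LDHi and 440, 989, 511 and 196 CPM in control. Within each replicate number the LDHi+lactate library was the highest of the 3, and the spread between numbers was as wide as that between groups. Its log2 difference was 0.75 for LDHi+lactate against control with the block (SE 0.20, edgeR adjusted p = 0.0476) and 0.61 without it (SE 0.38, adjusted p = 0.659), and the blocked call was lost without replicate 1, 3 or 4 (edgeR adjusted p 0.119 to 0.184). For LDHi against control it was 0.20 (SE 0.38, edgeR adjusted p = 0.88) and turned to -0.08 without control replicate 4.

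Lamb1, the beta1 chain and the highest beta chain per length, had 615, 819, 892 and 464 CPM in LDHi+lactate, 427, 560, 532 and 365 CPM in LDHi and 474, 808, 496 and 258 CPM in control. It was higher in LDHi+lactate than in LDHi at every replicate number, with a log2 difference of 0.54 with the block (SE 0.14) that edgeR did not call (adjusted p = 0.149). Lamc1, the gamma1 chain, had 851, 1032, 1094 and 642 CPM in LDHi+lactate, 696, 729, 763 and 546 CPM in LDHi and 578, 928, 675 and 374 CPM in control. It too was highest in LDHi+lactate at every number, and was called against control with the block (log2 0.54, SE 0.11, edgeR adjusted p = 0.0238; without it 0.50, SE 0.24, 0.556). That call was lost without replicate 1, 3 or 4 (edgeR adjusted p 0.0873 to 0.118). In control, replicate 2 was high and replicate 4 low for all 3 of these chains. Sparc, a collagen-binding matricellular protein, was also highest in control replicate 2 and lowest in control replicate 4, with 890, 1627, 680 and 411 CPM in control replicates 1 to 4, and 8 extraembryonic endoderm markers (Gata4, Gata6, Sox17, Sox7, Dab2, Foxa2, Afp, Ttr) summed to 208, 503, 214 and 106 CPM in control replicates 1 to 4. The same markers summed to 185 to 442 CPM in LDHi+lactate and 184 to 461 CPM in LDHi, with 0 of the 8 called by edgeR between LDHi+lactate and either other group. In LDHi against control, 0 were called without the block, and with it Sox17 and Foxa2 were higher (log2 0.54 and 0.52, edgeR adjusted p = 0.00307 and 0.0328), against 9.85% of all genes. Their part in the laminin levels was not tested.

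**Figure D4:**
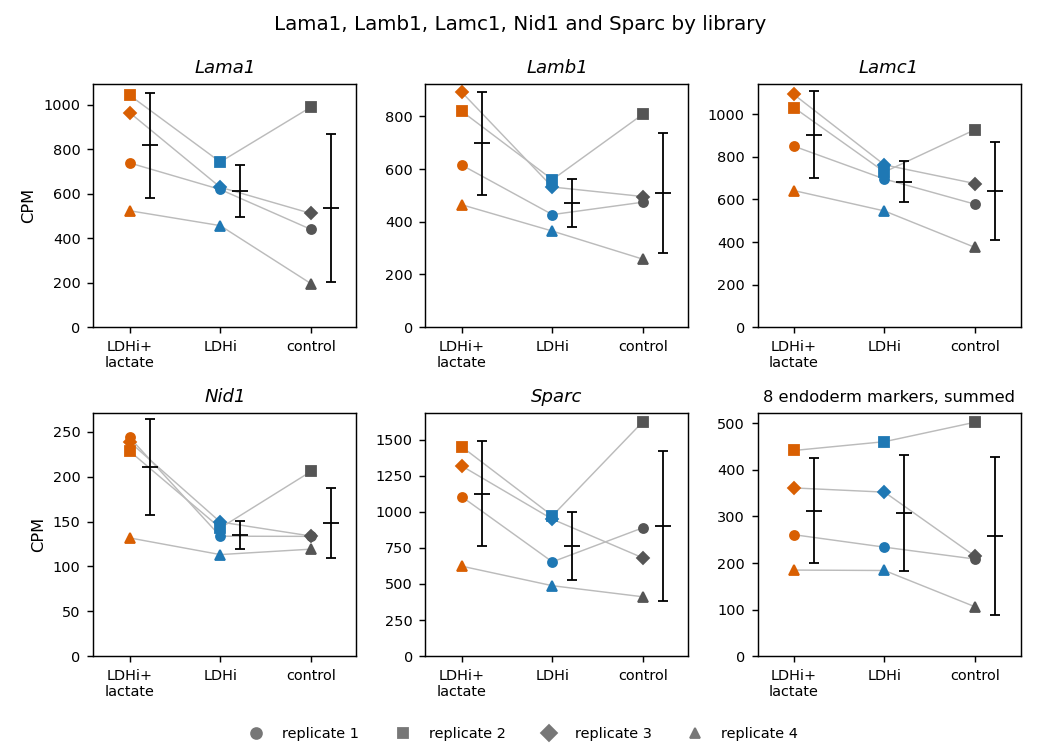
CPM of Lama1, Lamb1, Lamc1, Nid1 and Sparc, and the summed CPM of 8 extraembryonic endoderm markers, in each library of LDHi+lactate, LDHi and control. Lines connect same-numbered libraries, and bars in black show the mean ± SD (n = 4); control replicate 2 (square) is the highest control in every panel and control replicate 4 (triangle) the lowest.

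Lama2, the alpha2 chain of muscle and peripheral nerve basement membranes, was far less abundant and fell in LDHi. It had 1.10, 0.918, 0.995 and 1.08 CPM in LDHi+lactate, 0.552, 0.603, 0.276 and 1.07 CPM in LDHi and 1.93, 0.914, 3.34 and 11.3 CPM in control. The groups overlap through LDHi replicate 4 and control replicate 2, and control replicate 4 lies far above the rest. The log2 difference for LDHi against control was -2.78 (SE 0.67, edgeR adjusted p = 0.0442), and -1.69 (SE 0.46, adjusted p = 0.09) without control replicate 4. The call was lost in 11 of 12 fits that left out 1 library (edgeR adjusted p 0.0507 to 0.133). With the block it was -2.39 (SE 0.52, edgeR adjusted p = 0.0097), a call lost without replicate 3 (adjusted p = 0.0637).

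Lamc3, a gamma chain found in nervous tissue, had 0.676, 0.243, 0.377 and 1.45 CPM in LDHi+lactate, 0.288, 0.172, 0.322 and 0.537 CPM in LDHi and 1.47, 0.610, 0.960 and 8.55 CPM in control. All LDHi libraries lay below all control libraries. With the block, LDHi was lower than control by log2 -2.59 (SE 0.40, edgeR adjusted p = 0.00183; -1.96 without replicate 4), and LDHi+lactate by -1.67 (SE 0.37, edgeR adjusted p = 0.0268), a call lost on leaving out any of the 4 numbers. Without the block the values were -3.15 (SE 0.87, edgeR adjusted p = 0.0743) and -2.07 (SE 0.81, adjusted p = 0.454). Of the laminin genes given by range, Lama4, the alpha4 chain of vessels and mesenchyme, had 1.134 to 4.29 CPM in LDHi+lactate, 1.46 to 2.57 CPM in LDHi and 1.59 to 17.5 CPM in control, its highest value again in control replicate 4. Lama3 and Lamb3, chains of the epithelial anchoring laminin, stayed under 2.5 CPM in all libraries, Lama5 had 81.3 to 171 CPM, and Lamb2, a beta chain of neuromuscular and retinal basement membranes, had 54.3 to 102 CPM. None of these 5 was called by edgeR over the 12 libraries in any comparison, with or without the block. DESeq2 called Lama4 lower in LDHi than in control (adjusted p = 0.0223), and with the block also Lama5 (adjusted p = 0.0228), and Lama4 and Lamb2 lower in LDHi+lactate than in control (adjusted p = 0.0074 and 0.0287).

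The basement membrane linkers were called by edgeR only with the block. Nid1, nidogen 1, which bridges laminin and collagen IV, had 244, 229, 239 and 132 CPM in LDHi+lactate, 134, 143, 150 and 113 CPM in LDHi and 133, 206, 134 and 119 CPM in control. Replicates 1, 2 and 3 of LDHi+lactate exceeded every other library and replicate 4 did not. Against control the difference was called with the block (log2 0.50, SE 0.13, edgeR adjusted p = 0.0451; without it 0.51, SE 0.21, 0.467) and lost without replicate 1, 3 or 4 (edgeR adjusted p 0.0722 to 0.197). Against LDHi it was 0.62 with the block (SE 0.13, edgeR adjusted p = 0.0797) and 0.65 without it (SE 0.21, edgeR adjusted p = 0.9999, unadjusted p = 0.00836).

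Agrn, the heparan sulfate proteoglycan agrin, had 380, 449, 380 and 386 CPM in LDHi+lactate, 438, 442, 369 and 379 CPM in LDHi and 430, 494, 475 and 493 CPM in control. It was a little lower in both treated groups with the block, by log2 -0.22 in LDHi (SE 0.06, edgeR adjusted p = 0.0376) and -0.25 in LDHi+lactate (SE 0.06, edgeR adjusted p = 0.0436). Neither was called without the block (edgeR adjusted p = 0.241 and 0.426). The LDHi call was lost without replicate 2, 3 or 4 and the LDHi+lactate call on leaving out any of the 4. Nid2 (121 to 251 CPM) and Hspg2, perlecan (178 to 381 CPM), were not called by edgeR in any comparison, with or without the block; DESeq2 with the block called Nid2 higher in LDHi than in control (adjusted p = 0.0272). Nid2 shares exonic sequence with Rtraf on the other strand, which had 28127 counts in the 12 libraries against 70985 for Nid2, and the sources used here do not say whether counting used strand.

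Fbn2, fibrillin 2, the fibrillin of embryonic microfibrils (chromosome 18), had the smallest adjusted p of the set for LDHi against control, with and without the block. It had 134, 106, 200.2 and 151 CPM in LDHi+lactate, 48.7, 30.7, 68.2 and 85.3 CPM in LDHi and 189, 129, 341 and 193 CPM in control. Every LDHi library lay below every library of the other groups, and within each number the LDHi+lactate value lay between LDHi and control. LDHi was lower than control by log2 -1.87 (SE 0.34, edgeR adjusted p = 0.0159; with the block SE 0.16, adjusted p = 0.000121). This call held in each of the 12 fits that left out 1 library (log2 -2.13 to -1.56, edgeR adjusted p 0.00952 to 0.0489) and in the 4 blocked fits that left out a number. LDHi+lactate was higher than LDHi by log2 1.39 with the block (SE 0.16, edgeR adjusted p = 0.00813) and by 1.35 without it (SE 0.34, adjusted p = 0.625; DESeq2 adjusted p = 0.0331). The blocked call was lost without replicate 1, 2 or 3 (edgeR adjusted p 0.0611 to 0.0861). Against control, LDHi+lactate differed by -0.48 with the block (SE 0.15, edgeR adjusted p = 0.0768). DESeq2 with the block called Fbn2 lower in LDHi+lactate than in control (adjusted p = 0.0127), as did blocked edgeR without replicate 4. The optic vesicle marker sums given above were also lowest in LDHi at every number. At number 4, however, the control sum (569 CPM) lay below that of LDHi+lactate (602 CPM). The part of these markers in the Fbn2 level was not tested.

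Fbn1, fibrillin 1, had 19.8 to 48.1 CPM over all libraries and was called in no comparison (LDHi against control: log2 -0.29, SE 0.21, edgeR adjusted p = 0.581). The difference between the 2 fibrillin genes in response was not tested. Fn1, fibronectin, the ligand of several integrins listed here, had 316, 575, 402 and 472 CPM in LDHi+lactate, 488, 564, 505 and 528 CPM in LDHi and 288, 355, 432 and 434 CPM in control. All LDHi libraries exceeded all controls and those of LDHi+lactate overlapped both. LDHi was higher than control by log2 0.48 with the block (SE 0.12, edgeR adjusted p = 0.0179; lost without replicate 1, 0.0856) and 0.47 without it (SE 0.17, adjusted p = 0.179).

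Lum, lumican, a leucine-rich proteoglycan that binds collagen fibrils, had 1.87, 0.297, 0 and 2.37 CPM in LDHi+lactate, 0.0960, 0.280, 0.0460 and 0.729 CPM in LDHi and 3.34, 1.85, 1.15 and 26.6 CPM in control. The LDHi libraries lay below all controls, with control replicate 4 far above the others. The LDHi levels, at most 0.729 CPM, and the 0 of LDHi+lactate replicate 3 are near the floor. The size of the log2 differences is uncertain there. With the block, the log2 difference was -4.39 for LDHi against control (SE 0.70, edgeR adjusted p = 0.00211, held without each number in turn, -5.12 to -3.87) and -2.48 for LDHi+lactate against control (SE 0.59, edgeR adjusted p = 0.0348, lost without replicate 2, 3 or 4; -3.41 to -2.01 over these fits, the lowest without replicate 1). Without the block LDHi against control gave -4.84 (SE 1.35, edgeR adjusted p = 0.0759), and -2.89 without control replicate 4. Tnc, tenascin C, had 0.270 to 1.32 CPM in LDHi+lactate, 0.474 to 0.967 CPM in LDHi and 0.479 to 1.15 CPM in 3 controls, against 18.5 CPM in control replicate 4. Tnc and Sparc were called in no comparison by edgeR, and DESeq2 with the block called Tnc lower than control in LDHi and in LDHi+lactate (adjusted p = 0.0456 and 0.00565).

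For the genes that were high in control replicate 4, the mesenchyme list (Pdgfra, Pdgfrb, Prrx1, Prrx2, Twist1, Twist2, Dcn, Foxc1, Foxc2, Col1a1, Col1a2, Col3a1) moved the same way. Of its 12 markers, 8 were lower in LDHi than in control without a block and 10 with it, and 0 were higher. Of all genes tested, 2.18% were lower without a block and 10.1% with it. Lama2, Lama4, Lamc3, Lum, Tnc and Itga4 all had their highest library in control replicate 4. In the 3 other controls the mesenchyme sum still exceeded that of every LDHi library. The part of mesenchyme in these differences was not tested.

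**Figure D5:**
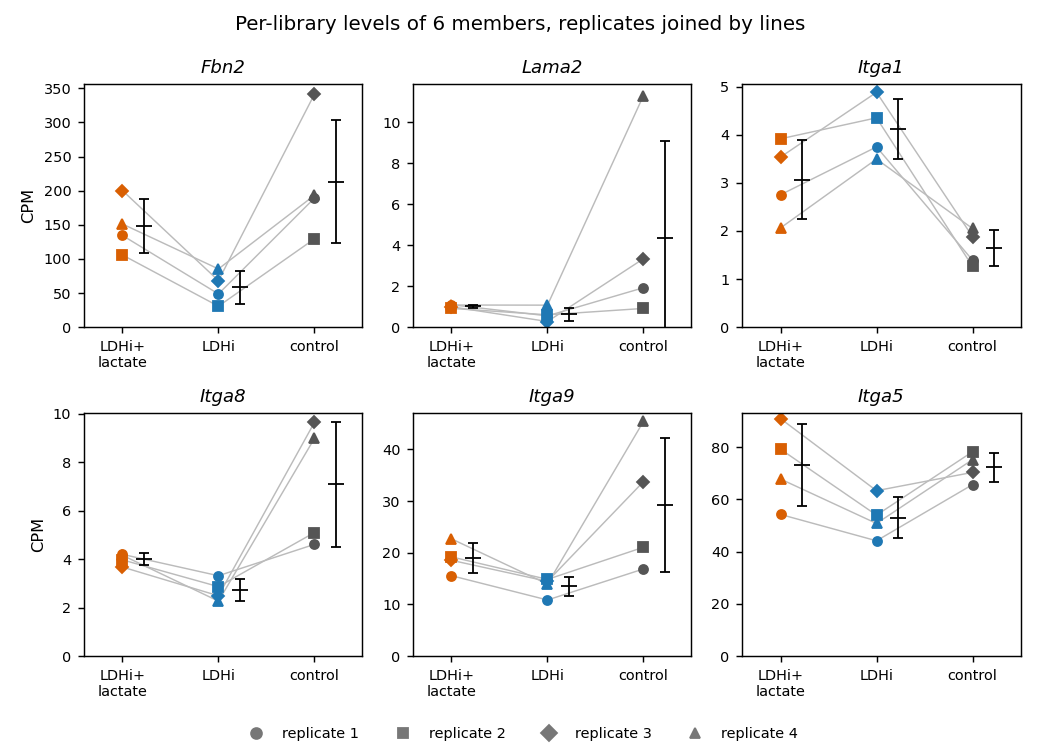
CPM in each library for Fbn2, Lama2, Itga1, Itga8, Itga9 and Itga5, with lines joining libraries of the same replicate number and black bars giving the mean ± SD (n = 4; the Lama2 control bar is drawn down to 0). LDHi libraries lie below all controls for Fbn2, Itga8, Itga9 and Itga5 and above all controls for Itga1.

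Itga1 (chr13:114953096-115101964, minus strand, mm10 positions from GENCODE vM21), the alpha1 subunit of a collagen and laminin receptor, was the only one of the set called higher in LDHi than in control without a block. It had 2.75, 3.91, 3.53 and 2.06 CPM in LDHi+lactate, 3.75, 4.35, 4.88 and 3.49 CPM in LDHi and 1.39, 1.26, 1.88 and 2.05 CPM in control. Both treated groups lay above all controls, LDHi+lactate replicate 4 only narrowly. LDHi was higher than control by log2 1.33 (SE 0.25, edgeR adjusted p = 0.0202), a call lost without LDHi replicate 2 or 3 or control replicate 1 or 3 (edgeR adjusted p 0.0511 to 0.0675) and held in the 4 blocked fits that left out a number. LDHi+lactate was higher than control by 0.89 with the block (SE 0.23, edgeR adjusted p = 0.0436; lost without replicate 1, 2 or 3) and by 0.90 without it (SE 0.25, adjusted p = 0.312). Against LDHi, LDHi+lactate differed by -0.43 with the block (SE 0.22, edgeR adjusted p = 0.501). The gene Pelo lies within Itga1 on the same strand, without shared exons, and had 5432 counts against 1210 for Itga1. Gm49395, also on the same strand, shares exonic sequence with Itga1 and had 14 counts. Endothelial markers (Pecam1, Cdh5, Kdr, Tek, Flt1) summed to 115 to 144 CPM in LDHi+lactate, 128 to 162 CPM in LDHi and 83.2 to 99.4 CPM in control, with 1 of 5 higher and 1 lower in LDHi (0.909% and 2.18% of all genes). Pluripotency markers (Pou5f1, Nanog, Zfp42, Esrrb, Klf4) summed to 359.8 to 751 CPM, 435 to 789 CPM and 169 to 343 CPM in the same groups, with 4 of 5 higher in LDHi than in control (0.909% of all genes). Their part in the Itga1 level was not tested. Itga2, the other collagen-binding subunit which lies next to Itga1 on chromosome 13, had 0.275 to 1.12 CPM and no call.

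Among subunits that bind RGD ligands, Itga8 and Itga5 were lower in LDHi and Itgav (46.4 to 86.7 CPM) was called in no comparison. Itga8 (chr2:12106632-12301922, minus strand), the alpha8 subunit of the nephronectin receptor, had 4.20, 3.97, 3.67 and 4.16 CPM in LDHi+lactate, 3.31, 2.86, 2.49 and 2.27 CPM in LDHi and 4.61, 5.09, 9.64 and 8.98 CPM in control. The 3 groups did not overlap, with LDHi+lactate between LDHi and control. LDHi was lower than control by log2 -1.36 (SE 0.26, edgeR adjusted p = 0.0186), and the call was lost without LDHi replicate 2, 3 or 4 or control replicate 3 (edgeR adjusted p 0.0524 to 0.0588). LDHi+lactate differed from LDHi by 0.55 (SE 0.25, edgeR adjusted p = 1) and from control by -0.82 (SE 0.25, adjusted p = 0.346), neither called by edgeR with the block. The LDHi difference was -0.65 (SE 0.22) in replicates 1 and 2 and -1.98 (SE 0.26) in replicates 3 and 4; these differed by -1.32 (unadjusted p = 0.00161), which edgeR did not call over all genes (adjusted p = 0.89). Npnt, nephronectin, the ligand of this receptor, averaged 27.3 ± 8.36 CPM in LDHi+lactate, 16.6 ± 5.83 CPM in LDHi and 54.3 ± 23.3 CPM in control (SD, n = 4 each), and LDHi was lower than control by log2 -1.65 with the block (SE 0.16, edgeR adjusted p = 0.000271).

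Itga5 (chr15:103344286-103366763, minus strand), the alpha5 subunit of the fibronectin receptor, had 54.3, 79.2, 90.9 and 67.8 CPM in LDHi+lactate, 44.2, 54.0, 63.3 and 50.8 CPM in LDHi and 65.7, 78.3, 70.4 and 75.2 CPM in control. LDHi lay below all controls and below LDHi+lactate at every number. With the block LDHi was lower than control by log2 -0.46 (SE 0.09, edgeR adjusted p = 0.0059, held without each number in turn), and without it the adjusted p was 0.144 for -0.45 (SE 0.15). LDHi+lactate was higher than LDHi by 0.45 with the block (SE 0.09), which edgeR did not call (adjusted p = 0.0605; DESeq2 with the block did). Against control, the log2 difference of LDHi+lactate was 0.01 (SE 0.15) and changed sign with library totals as the scaling (-0.0065).

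Of the laminin receptors, Itga3, the alpha3 subunit, had 61.5, 88.8, 119 and 79.8 CPM in LDHi+lactate, 44.6, 55.3, 86.4 and 64.3 CPM in LDHi and 64.9, 91.4, 115 and 56.9 CPM in control. LDHi was below LDHi+lactate at all 4 numbers and below control at 3. It was lower than control by log2 -0.38 with the block (SE 0.11, edgeR adjusted p = 0.0393; lost without replicate 1, 2 or 3, edgeR adjusted p 0.154 to 0.174), and without the block the adjusted p was 0.53. Itga6, the alpha6 subunit, was the most even of the alpha subunits, with 162 to 233 CPM in all libraries and no call. Itga7, a laminin receptor subunit of muscle, had 2.29 to 9.51 CPM and no call between treatments by edgeR; DESeq2 with the block called it higher in LDHi+lactate than in control (adjusted p = 0.0161).

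Itga9 (chr9:118606690-118901003, plus strand), a receptor subunit for tenascin C and VCAM1, had 15.6, 19.2, 18.5 and 22.7 CPM in LDHi+lactate, 10.9, 14.8, 14.5 and 13.9 CPM in LDHi and 16.9, 21.1, 33.8 and 45.4 CPM in control. LDHi lay below both other groups, and control replicates 3 and 4 exceeded every other library. LDHi+lactate lay below control at every number, by log2 -0.62 without the block, which edgeR did not call with or without it. DESeq2 with the block called Itga9 lower in LDHi+lactate than in control. LDHi was lower than control by log2 -1.11 (SE 0.27, edgeR adjusted p = 0.0436), lost in 10 of 12 fits that left out 1 library (edgeR adjusted p 0.051 to 0.123; log2 -0.82 without control replicate 4), and by -1.03 with the block (SE 0.18, edgeR adjusted p = 0.00326, held without each number in turn). Itga4, the alpha4 subunit that pairs with beta1 or beta7, had 4.01, 1.30, 2.16 and 7.17 CPM in LDHi+lactate, 3.48, 1.29, 0.46 and 1.69 CPM in LDHi and 6.76, 2.35, 9.22 and 20.8 CPM in control. LDHi was below control at every number, by log2 -2.22 with the block (SE 0.50, edgeR adjusted p = 0.0114; lost without replicate 3 or 4), and -2.47 without it (SE 0.73, adjusted p = 0.0924; -1.79 without control replicate 4). LDHi+lactate was also below control at every number, by log2 -1.41 without the block, which edgeR did not call with or without it.

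Of the beta subunits, 0 of 5 were called between LDHi and control by edgeR with or without the block, with log2 differences of -0.18 to 0.35, while DESeq2 with the block called Itgb1 lower (adjusted p = 0.0453). Itgb3, the partner of alpha v in a vitronectin receptor, had 6.02, 8.77, 10.4 and 12.7 CPM in LDHi+lactate, 5.23, 6.61, 10.1 and 13.9 CPM in LDHi and 4.24, 5.97, 7.41 and 10.5 CPM in control. It differed more between replicate numbers than between groups, and only LDHi+lactate against control was called, with the block alone (log2 0.46, SE 0.12, edgeR adjusted p = 0.0407; without it 0.43, SE 0.35, 0.763) and lost on leaving out any of the 4 numbers (edgeR adjusted p 0.105 to 0.155). Itgb1 had 286 to 439 CPM, Itgb5 46.9 to 89.3 CPM, Itgb8, a partner of alpha v, 16.6 to 44.9 CPM and Itgb4, the partner of alpha6 in hemidesmosomes, 4.35 to 9.07 CPM.

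The 2 library sets differed in several of the same genes. With the group in the model, 6 of the 35 were higher in replicates 3 and 4 than in replicates 1 and 2 and 1 was lower, against 27.9% of all genes called (13.7% higher and 14.3% lower). Itgav averaged 77.99 ± 6.77 CPM in replicates 3 and 4 and 51.0 ± 3.19 CPM in replicates 1 and 2 (SD, n = 6 each), a log2 difference of 0.61 (SE 0.06, edgeR adjusted p = 4.79e-05). Itgb1, Itgb3, Itga7, Itgb4 and Fbn2 were also higher, by 0.29, 0.82, 0.89, 0.55 and 0.75 on the log2 scale (edgeR adjusted p 0.00154 to 0.0092), and Lamb3 was lower by log2 -0.92 (edgeR adjusted p = 0.0262). The labels give a different cell type for the 2 sets and the libraries differ in depth between them (medians of 26023789.5 counts in replicates 3 and 4 and 44154500.5 in replicates 1 and 2), which cannot be told apart. No treatment difference of any gene differed between the sets at an adjusted p under 0.05 in edgeR (0 of 17721 in each comparison; at an unadjusted p under 0.05, 694 genes did so for LDHi against control, 239 for LDHi+lactate against LDHi and 306 for the third comparison).

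Lists of related genes were counted beside the 35 by their edgeR calls. Over all genes tested in LDHi against control, 0.909% were higher and 2.18% lower without the block, and 9.85% and 10.1% with it. Of 39 other basement membrane and microfibril proteins, 36 were tested and 10 were lower in LDHi than in control (0 higher; with the block 19 lower), with a median log2 difference of -0.61. Spock3, a testican proteoglycan, was lower by log2 -1.80 (SE 0.26, edgeR adjusted p = 0.00949), Efemp1 and Efemp2, fibulins, by -1.79 and -0.83 (SE 0.29 and 0.17, edgeR adjusted p = 0.0129 and 0.0237), and Emilin1, an elastic fibre glycoprotein, by -1.49 (SE 0.26, edgeR adjusted p = 0.0133). With lactate against LDHi, 0 of the 36 were called in either fit. In LDHi+lactate against control, 0 were called without the block. With it, 1 was higher and 12 were lower, against 4.18% and 3.87% of all genes. Of 7 other laminin and integrin subunits tested (12 listed), none was called without the block, and with it Itgb7 and Itgal were higher in LDHi than in control (log2 1.46 and 0.98) and Itga11 was lower (-2.07). These genes were low, with control means of 1.12, 1.33 and 1.43 CPM for Itgb7, Itgal and Itga11. The control SD of Itga11 was 1.68 CPM, above its mean, and its LDHi mean was 0.264 CPM.

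Of 13 genes for dystroglycan and other laminin receptors tested (16 listed), 0 were called in LDHi against control, and with the block 3 were lower, Bcam, a laminin alpha5 receptor, by log2 -0.83 (SE 0.15, edgeR adjusted p = 0.00458) and Lrp4 and Sgcb by -0.34 and -0.31. Of 25 integrin adaptors and adhesion genes tested (26 listed), Filip1, which binds the actin crosslinker filamin, was lower in LDHi than in control by log2 -2.07 (SE 0.35, edgeR adjusted p = 0.0133) and no other was called. With the block 7 were lower, among them Parvb, a parvin of the integrin-linked kinase complex, by -0.70 (SE 0.10, edgeR adjusted p = 0.00111) and Tns2, a tensin, by -1.03 (SE 0.19, adjusted p = 0.00378), and Ptk2b, a focal adhesion kinase relative, was higher by 1.04 (SE 0.17, edgeR adjusted p = 0.00222). Parvb was the only gene of these lists called for LDHi+lactate against LDHi, with the block (log2 0.56, SE 0.10, edgeR adjusted p = 0.036).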

How the data were processed

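RNA was isolated with an RNeasy kit, libraries were made with TruSeq mRNA reagents, and 50 bp single reads were sequenced. Per the labels, the authors used cutadapt 1.13 for trimming, STAR for alignment (mm10) and HTSeq 0.6.1p1 for counting, and the deposited values are raw counts per Ensembl gene in each of 12 libraries. The sources used here give neither the strand setting nor the annotation release. Symbols, positions and exon lengths came from GENCODE vM21 (54165 of 54232 IDs matched). Groups and replicate numbers came from the labels.

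Counts were fitted with edgeR 4.0.16 (R 4.3.3): TMM scaling, filterByExpr by group, 1 quasi-likelihood fit over 12 libraries, Benjamini-Hochberg adjustment over 17721 genes. The numbers 1 to 4 were taken to pair libraries because the deviations of same-numbered libraries from their group means correlated across genes (r 0.329 to 0.634, all 12 pairs above 0.1); this pairing is read from the data. No 2 libraries of a group were repeats (chi-square per degree of freedom 27.6 to 134). Two-sided exact permutation tests of 4 against 4 libraries cannot go below 0.0286. The edgeR step was tested on simulated data. Alternatives were DESeq2 1.42.0, other scalings, filters and groups, a block, a set term, each set and each library left out; DESeq2 with the block was added after the data were seen. Members given in full were those called by edgeR over the 12 libraries in any comparison, with or without the block, plus the highest per-length member of a role group without calls; others are given by range. The members and lists were chosen with earlier results of these data known. Some genes of the marker and pathway lists are not reported here and were left out of their counts and sums.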

Additional observations from a re-analysis of the deposited data

Results flagged for a closer look

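Within groups of 4 libraries, 4 of 105 gene and group pairs had 1 library set apart from the other 3 by a gap whose share of the group's whole range (log2 CPM) exceeded Dixon's critical value; chance alone flags about 1 in 20, which comes to 5.25. Agrn in LDHi+lactate had its highest library, replicate 2, at 449 CPM against 380 to 386 CPM in the other 3 (gap share 0.909). Nid1 in LDHi+lactate had its lowest library, replicate 4, at 132 CPM against 229 to 244 CPM (0.895). Lama5 in LDHi had its lowest library, replicate 1, at 82.2 CPM against 108 to 113 CPM (0.857). Itga2 in control had its highest library, replicate 4, at 1.12 CPM against 0.471 to 0.544 CPM (0.838).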

How the results depend on the processing

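For LDHi against control, the counts of genes higher and lower (1 and 4) became 2 and 10 with the replicate block, 3 and 14 with DESeq2 and the block (chosen after the data were seen), 0 and 0 in replicates 1 and 2 alone and 0 and 2 in replicates 3 and 4 alone. The count lower was 8 with DESeq2 and 1 with only the 2 groups in the fit. Leaving out 1 library gave 0 to 1 higher and 1 to 7 lower without the block, and leaving out replicate 1, 2, 3 or 4 with it gave 1, 5, 2 and 2 higher and 9, 10, 6 and 9 lower. For LDHi+lactate against LDHi, 0 higher became 1 with the block or DESeq2 and 6 with both, and 0 to 2 with the block and 1 number left out. For LDHi+lactate against control, 0 higher and 0 lower became 5 and 3 with the block, 1 and 1 with DESeq2, 7 and 10 with both, and 0 to 4 higher and 0 to 1 lower with the block and 1 number left out. The 7 genes that differed between the library sets became 21 with no filter on low counts. RLE size factors, library totals and a log2 threshold of 1 left the called genes as they were.

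Of the log2 differences of the 17 genes given in full, 34 values changed sign, all of genes that edgeR did not call in that comparison over the 12 libraries. For LDHi against control, Lama1 turned to -0.0701 and Lamc1 to -0.08 in replicates 1 and 2 alone, and leaving out 1 library gave -0.084 to 0.671 for Lama1 and -0.0918 to 0.325 for Lamc1. Lamb1 turned to 0.235 and Nid1 to 0.0376 in replicates 3 and 4 alone, leaving out 1 library gave -0.335 to 0.195 for Lamb1 and -0.23 to 0.0558 for Nid1, and with the block Lamb1 was 0.0042 without replicate 1 and 0.144 without replicate 2, and Nid1 0.0225 without replicate 2. For LDHi+lactate against LDHi, Agrn turned to 0.0384 and Itgb3 to -0.0509 in replicates 3 and 4 alone, leaving out 1 library gave -0.0921 to 0.0128 for Agrn and -0.104 to 0.376 for Itgb3, and with the block Agrn was 0.0295 without replicate 1. For LDHi+lactate against control, Itga3 turned to -0.0579 and Itga5 to -0.109 in replicates 1 and 2 alone, leaving out 1 library gave -0.0991 to 0.285 for Itga3 and -0.113 to 0.127 for Itga5, and with the block Itga3 was -0.0342 without replicate 4 and Itga5 -0.0255 without replicate 2 and -0.135 without replicate 3. Itga5 was also -0.0195 with DESeq2 and the block, -0.0065 with library totals and -0.0121 with the block. The cause was not tested.

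The numbers pair libraries by the data and not by a statement of the study, and each group has 4 libraries, so a call that rests on the block rests on that pairing. Depth limits the low genes: Lama2, Lama3, Lamb3, Lamc3 and Tnc had 356 to 748 counts each over the 12 libraries together. Itga2 (0.275 to 1.12 CPM over all libraries) and Lum (0.0460 to 0.729 CPM in LDHi) were also low. Without control replicate 4, the LDHi differences of Lama2, Lamc3, Lum and Itga4 were -1.69, -1.65, -2.89 and -1.79.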
